A study of Mus musculus with 30 samples.

Results

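H3K9me3, trimethylation of lysine 9 on histone H3, was mapped in mouse cells labelled embryonic stem cell, and the regions described here are those that lay over zinc finger genes. Called regions of the 6 H3K9me3 libraries were merged wherever they shared at least 1 bp, on chromosomes 1 to 19, which gave 44431 merged regions. Of these, 33539 were called in at least 2 libraries and were shorter than 30 kb, and 148 of them overlapped the body of a protein-coding gene whose symbol is Zfp followed by a number. The 148 regions lay over 127 host genes of the 360 such Zfp genes in the GRCm38 annotation. The members were chosen by the measured calls, the number of libraries with a call and the length of the regions, so those values are given as descriptions with no test. The choice did not use the position within the gene, the treatment of the libraries or RNA.

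Most genes of this symbol class encode DNA-binding proteins with arrays of C2H2 zinc fingers, and many carry a KRAB domain, which recruits TRIM28 and the methyltransferase SETDB1 to the bound site, most often a transposable element. They lie in clusters that grew by tandem duplication, and their fingers are typically encoded together in the last exon. In mouse and human cells the 3′ part of many KRAB zinc finger genes carries H3K9me3 while the gene is transcribed. Demethylases of the KDM4 family remove the mark.

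The study asked about ETV2, an ETS-family transcription factor (also called ER71), and the H3K9 demethylases KDM4A and KDM4C, with RNA-seq of 18 libraries and H3K9me3 ChIP-seq of 6, each with an input. The 6 RNA groups of 3 libraries each were iETV2 cells given DOX and iETV2 cells without it, cells of the iETV2-KDM4A (H188A) line given DOX and the same line without it, and KDM4A/4C DKO cells and their control. DOX (doxycycline) switches on the inducible construct, and H188A is a substitution known to remove the catalytic activity of KDM4A. The ChIP libraries were 3 given DOX and 3 untreated. Their line is not labelled, and all their titles begin with EB, which the labels do not spell out. The DOX group held 1 library named for D2, 1 named for D3 and 1 named for Er71-Flag and D2, so that it was not a set of like replicates. Whether a line was 1 clone is not stated, nor is it stated that replicates were separate cultures, so p-values measure the spread between these samples, which may be technical.

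Promoters of host genes lay either inside a merged region or outside it, and 3 of each kind are shown, from RefSeq on GRCm38.p6. Each window runs from 250 bases before the start site of the promoter to 50 after it. That start site is not always where the annotated gene span begins, and for Zfp945 and Zfp386 it lies inside the span. The first set holds promoters that lay within a region called in all 6 libraries, at Zfp112 (chr7:24112070-24112369, plus strand), Zfp772 (chr7:7209949-7210248, minus strand) and Zfp872 (chr9:22187916-22188215, plus strand). Capitals mark the ETS core CCGGAA or its reverse complement TTCCGG, searched on both strands because ETV2 is an ETS factor.
Zfp112: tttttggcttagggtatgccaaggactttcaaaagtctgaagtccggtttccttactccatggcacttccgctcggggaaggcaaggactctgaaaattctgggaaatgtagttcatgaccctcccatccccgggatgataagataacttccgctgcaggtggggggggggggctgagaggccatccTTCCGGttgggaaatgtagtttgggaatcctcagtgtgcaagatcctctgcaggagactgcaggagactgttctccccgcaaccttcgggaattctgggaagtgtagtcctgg
Zfp772: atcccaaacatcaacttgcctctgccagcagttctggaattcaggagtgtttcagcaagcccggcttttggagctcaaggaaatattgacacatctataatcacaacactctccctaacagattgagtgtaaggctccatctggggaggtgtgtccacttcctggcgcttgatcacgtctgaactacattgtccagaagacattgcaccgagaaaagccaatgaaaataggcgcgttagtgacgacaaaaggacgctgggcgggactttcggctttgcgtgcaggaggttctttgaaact
Zfp872: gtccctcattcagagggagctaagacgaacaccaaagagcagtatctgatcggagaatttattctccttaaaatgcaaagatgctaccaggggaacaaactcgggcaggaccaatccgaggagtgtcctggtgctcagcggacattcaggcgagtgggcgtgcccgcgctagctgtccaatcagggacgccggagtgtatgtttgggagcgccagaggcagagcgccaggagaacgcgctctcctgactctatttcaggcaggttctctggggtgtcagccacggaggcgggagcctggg
The second set holds promoters outside the region of their own gene, at Zfp709 (chr8:71881818-71882117, plus strand), Zfp945 (chr17:22867085-22867384, minus strand) and Zfp386 (chr12:116047474-116047773, plus strand), each with a merged region that reached the gene end and held a call in all 6 libraries.
Zfp709: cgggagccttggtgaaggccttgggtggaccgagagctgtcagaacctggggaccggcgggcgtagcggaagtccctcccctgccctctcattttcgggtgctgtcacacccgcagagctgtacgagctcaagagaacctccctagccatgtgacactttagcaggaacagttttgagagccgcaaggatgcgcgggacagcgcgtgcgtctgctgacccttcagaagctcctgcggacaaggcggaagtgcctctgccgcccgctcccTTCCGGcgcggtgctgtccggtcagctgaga
Zfp945: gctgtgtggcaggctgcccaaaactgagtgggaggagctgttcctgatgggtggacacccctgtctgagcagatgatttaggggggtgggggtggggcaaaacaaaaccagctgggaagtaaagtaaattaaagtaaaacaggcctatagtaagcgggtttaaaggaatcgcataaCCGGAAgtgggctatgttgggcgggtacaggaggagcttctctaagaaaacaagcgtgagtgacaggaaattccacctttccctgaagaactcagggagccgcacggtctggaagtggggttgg
Zfp386: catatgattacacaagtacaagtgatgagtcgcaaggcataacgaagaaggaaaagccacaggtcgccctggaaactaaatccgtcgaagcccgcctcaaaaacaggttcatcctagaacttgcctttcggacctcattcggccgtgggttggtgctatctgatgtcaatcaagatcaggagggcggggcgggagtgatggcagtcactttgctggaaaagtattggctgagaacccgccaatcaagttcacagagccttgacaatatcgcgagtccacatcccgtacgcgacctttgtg
The 6 letters were present once in the windows of Zfp112, Zfp709 and Zfp945 and not in those of Zfp772, Zfp872 and Zfp386. The windows held 8, 11 and 17 CpG dinucleotides in the first set and 23, 7 and 17 in the second. Over all 126 promoter windows of 109 host genes, 39.7% held the 6 letters, against 34.2% of 237 windows of Zfp genes without such a region, 18.8% of 19722 windows of other protein-coding genes and 14.9% of all 32851 windows. The shares of the host genes and of the remaining Zfp genes were close to each other, and a match is a run of letters, not a bound site.

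RNA depth was 40334911 to 68970038 counts per library. A member region held a median of 314 ChIP reads and 154 input reads per library in which it was called, with extremes of 46 and 3376 ChIP reads and 12 and 1809 input reads. Enrichment is given below as a scaled log2 ratio, which is the log2 ratio of ChIP to input reads minus the constant that the authors' log2 fold changes carry in each library. The libraries labelled DKO did not show loss of the targeted genes in counts over whole genes. Kdm4a had 42.9, 46.9 and 42.0 CPM (a gene's counts scaled to the library total) in them, against 53.9, 54.4 and 55.7 CPM in the control (log2 change -0.44 ± 0.05 SE, adjusted p = 6.82e-08, edgeR's quasi-likelihood test). Kdm4c was higher in them, at 48.0, 42.7 and 46.0 CPM against 30.2, 32.2 and 29.6 CPM in the control (0.45 ± 0.06, adjusted p = 5.02e-07, the same test). Counts over a whole gene do not test a deletion of part of it, and the deleted parts are not labelled.

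Zfp genes held such a region more often than other protein-coding genes, also at a like span. Host genes made up 35.3% of the 360 Zfp genes, and 20.6% of 20305 other protein-coding genes had a region under the same rule. A longer gene has more room for a region, and the median span was 20.6 kb for hosts, 15.9 kb for the other Zfp genes and 17.5 kb for other protein-coding genes. Within the span range of the hosts, 10.7 to 55.3 kb (their 10th to 90th percentile), 101 of 258 Zfp genes were hosts (39.1%), against 1355 of 8375 other protein-coding genes with a region (16.2%). Hosts were spread over all 19 chromosomes. Chromosome 7, with 90 Zfp genes, held 30 of them, chromosome 17 held 15 of 41, chromosome 2 held 13 of 24 (54.2%) and chromosome 9 held 12 of 19 (63.2%), while chromosome 6 held 2 of 17. Of the 233 Zfp genes that were not hosts, 182 had no called region, 15 had a region in 1 library only and 36 lay in a region of 30 kb or more. Another 8 genes were hosts and also lay in such a long region.

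Most regions were called in every library. Of the 148, 92 were called in all 6 libraries, 18 in 5, 11 in 4, 14 in 3 and 13 in 2. Beside them, 16627 of all 33539 regions under 30 kb in 2 or more libraries were called in all 6 with input reads in each. They were 2000 to 28000 bp long with a median of 7800 bp. Most hosts, 105, had 1 region, 19 had 2 and 3 had 3. The hosts with 3 were Zfp141, Zfp560 and Zfp809, and the last encodes the repressor that recognises the proline tRNA primer binding site of murine leukaemia retroviruses. On either side of the 30 kb limit, the longest members lay over Zfp990 (28 kb, called in 5 libraries) and Zfp345 (27.2 kb, 6 libraries), and the shortest regions left out lay over Zfp994 (30 kb) and Zfp873 (30.2 kb), each called in 6.

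Within their genes the regions lay toward the 3′ end. Strand was known for 109 hosts, in 130 pairs of a region and a gene, and 69 of these regions covered the gene end (53.1%), 10 covered the gene start (7.69%) and 54 lay wholly inside (41.5%), with the 3 that covered the whole gene counted at both ends. The midpoint of the overlap lay at a median of 64.7% of the way from the start to the end (quartiles 45.7 and 86.6%), and 89 of the 130 midpoints (68.5%) lay in the 3′ part, past the middle. Among the 83 stranded pairs called in all 6 libraries, 62 lay past the middle. For 1316 pairs in other protein-coding genes of 10.7 to 55.3 kb, 20.5% covered the end and 11.2% the start, and the median midpoint was at 53.6%. The host pairs were not cut to that span range and include short genes such as Zfp553 (5.14 kb), so the 2 sets differ in span. Exons are not annotated in the sources used here, so overlap with the finger exon was not measured, and the difference in position was described without a test.

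Read along the gene library by library, host coverage was lowest at the start and higher toward the end. At 5% of the gene length from the start, 6.42, 6.42 and 5.50% of the 109 hosts were covered by a called region in the 3 DOX libraries, and 7.34, 6.42 and 3.67% in the 3 untreated libraries. At 95% of the length, coverage was 40.4, 39.4 and 38.5% in the DOX libraries and 43.1, 46.8 and 45.9% in the untreated libraries, so the groups did not overlap at this position. The groups did not overlap at 25% either, with 12.8 to 15.6% in the DOX libraries and 16.5 to 19.3% in the untreated libraries. The same held at 65%, with 22.9 to 27.5% and 29.4 to 38.5% in that order. At every other position the groups overlapped or shared a value. At 85%, for example, coverage was 43.1, 35.8 and 37.6% in the DOX libraries and 41.3, 45.0 and 42.2% in the untreated libraries. The calls behind this coverage also chose the members, and no position was tested. In 1092 other protein-coding genes of 10.7 to 55.3 kb that had a region, coverage in the DOX libraries was highest at 45% of the length, at 17.5, 16.5 and 13.8%, and stood at 10.8, 13.4 and 8.79% at 95%, against 11, 12.5 and 11.2% at 95% in the untreated libraries. The 109 hosts were not cut to that span range. Every library of both treatments had more of the hosts covered at 95% of the length than at 45%.

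**Figure D1:**
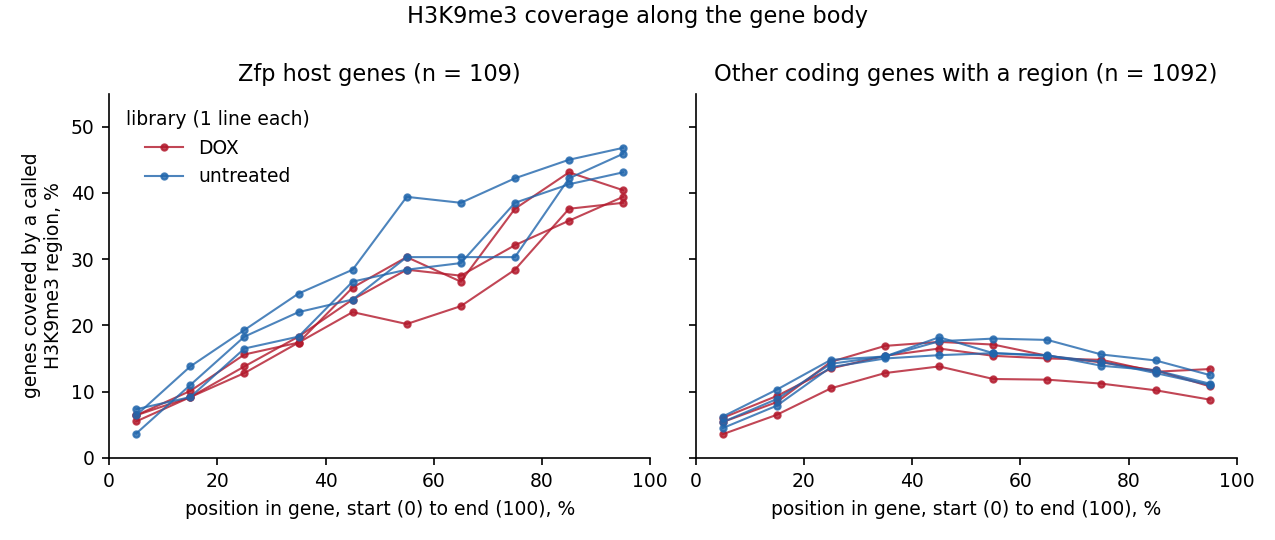
Share of genes (%) covered by a called H3K9me3 region at 10 positions along the gene body, from start to end, with 1 line per library (red DOX, blue untreated). In the 109 stranded host genes, of any span, coverage reached 38.5 to 46.8% at the last position, and in 1092 other protein-coding genes of 10.7 to 55.3 kb it was 8.79 to 13.4% there.

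Single genes show the arrangement. The region of Zfp709 (ENSMUSG00000056019, chr8:71882801-71908600, 25.8 kb) began 6.98% into the gene and ran past its end, that of Zfp345 (chr2:150457401-150484600) began at 3.29%, that of Zfp386 (chr12:116049001-116074400) at 8.29% and that of Zfp110 (chr7:12835401-12861000) at 4.04%. In these 4 genes the region covered nearly all of the body but not the start. Those of Zfp945 (chr17:22846401-22857000), Zfp37 (chr4:62185801-62202000), Zfp2 (chr11:50892401-50907600) and Zfp59 (chr7:27852601-27858200) began at 50, 36.4, 45.5 and 79.8% and also ran past the end. Zfp933 (chr4:147831401-147843000) and Zfp946 (chr17:22436401-22444200) had their region wholly inside, over 23.4 to 67.8% and 37.6 to 61.6% of the gene.

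**Figure D2:**
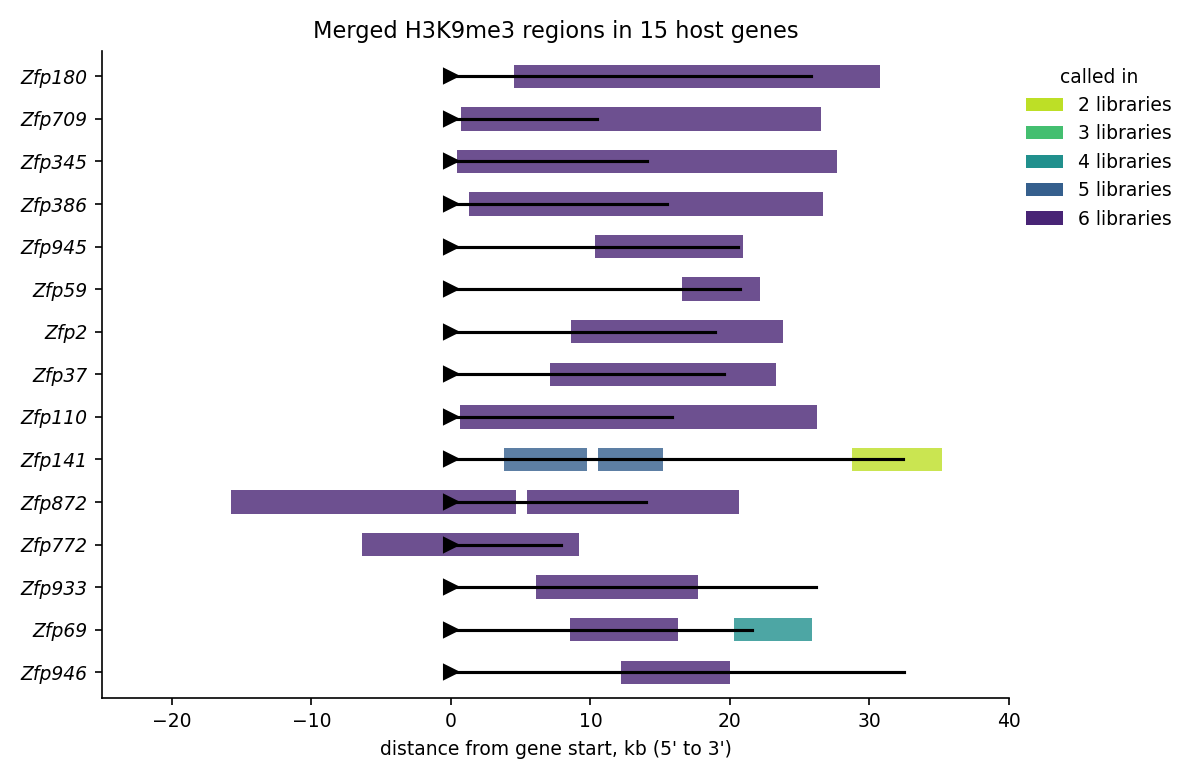
Merged regions (bars, coloured by the number of libraries that called them) drawn to scale against 15 host genes (lines, with an arrowhead at the start), as distance from the gene start in kb. Regions of Zfp709, Zfp345, Zfp386 and Zfp110 left only the start uncovered, and those of Zfp872 and Zfp772 covered it.

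The 10 hosts whose annotated span began inside a merged region were Zfp451, Zfp352, Zfp772, Zfp541, Zfp112, Zfp109, Zfp790, Zfp771, Zfp872 and Zfp996. The promoter windows of Zfp352, Zfp772, Zfp112, Zfp872 and Zfp996 lay inside the region, and those of the other 5 lay outside any member region. For 2 of the 10 the region was that of the neighbour upstream. Zfp112 was entered for 1.79% of its length by the region of Zfp180 (chr7:24086401-24112600), which covered the last part of Zfp180 from 17.5% onwards, and Zfp771 for 0.0337% by that of Zfp553 (chr7:127237801-127243000). Zfp772 (region chr7:7200801-7216400), Zfp996 (chr12:18386201-18408400) and Zfp352 (chr4:90218401-90235000), a gene known from the early mouse embryo, were covered whole. Zfp872 had 1 region over its start (chr9:22172401-22192800) and another over its end (chr9:22193601-22208800), both called in 6 libraries. The promoters of Zfp112, Zfp772 and Zfp872 printed above lie in these regions.

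The highest enrichment was at Zfp996, with scaled log2 ratios of 2.08, 2.03 and 1.78 in the DOX libraries and 2.05, 2.44 and 2.17 in the untreated libraries. After it came Zfp69, Zfp966, Zfp968, Zfp933, Zfp967, Zfp277 and Zfp575, whose means over 6 libraries ran down to 1.69. The region inside Zfp69 (chr4:120935401-120943200), a KRAB gene tied to lipid metabolism in mice, had 1.97, 1.69 and 1.78 in the DOX libraries and 1.64, 1.74 and 1.98 in the untreated libraries, and the 2 groups overlapped. That of Zfp575 (chr7:24576601-24588200) had 1.88, 1.62 and 1.5 in the DOX libraries and 1.70, 1.63 and 1.83 in the untreated libraries. Zfp966, Zfp967 and Zfp968 lie on chromosome 2, each with its own region that entered the gene only at the 3′ end, from 96.0, 87.4 and 97.2% onwards. Of these regions of 15.4, 16.4 and 17.4 kb, only 0.518, 1.62 and 0.354 kb lay in the gene. Their ratios are thus mostly of DNA outside the gene. The lowest mean among the 92 regions was 0.77, at Zfp445 and Zfp458, and Zfp990, called in 5 libraries, was lower still. Its ratios were 0.18 and 0.16 in the 2 DOX libraries that called it and 0.12, 0.36 and 0.43 in the untreated libraries.

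The members were slightly more enriched than other regions in each library. Over the 92 regions called in all 6 libraries, the median scaled log2 ratio was 1.31, 1.16 and 1.18 in the DOX libraries and 1.10, 1.18 and 1.18 in the untreated libraries. In 3936 other regions over protein-coding genes it was 1.23, 1.08 and 1.09 in the DOX libraries and 0.98, 1.06 and 1.12 in the untreated libraries. The gap was 0.06 or more in every library, but members had fewer reads per kb in ChIP and in input alike, for example 60.0 ChIP and 28.4 input reads per kb in the D2 library against 66.2 and 32.3 in the other regions. The part that read density or mappability plays in the gap was not tested.

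Whether DOX went with a change of the mark at these regions was asked library against library. Called members numbered 131, 119 and 122 in the DOX libraries and 124, 135 and 123 in the untreated libraries, with means of 124.0 ± 6.2 and 127.3 ± 6.7 (SD, n = 3 each). The covered length was 1100, 968 and 878 kb in the DOX libraries and 1052, 1250 and 1061 kb in the untreated libraries, a difference of -139 kb. The difference in number was smaller than either SD, and that in length was larger than both. The calls and their lengths entered the choice of members, so these values are given as descriptions with no test. The difference of -3.33 regions became 0.5 without untreated replicate 2. All called regions together covered 207, 183 and 152 Mb in the DOX libraries and 173, 200 and 177 Mb in the untreated libraries. Members made up 0.531, 0.529 and 0.576% of that length in the DOX libraries and 0.607, 0.624 and 0.598% in the untreated libraries. This share was lower in each DOX library, was looked at after the other values were seen, and was not tested.

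At single regions called in all 6 libraries no change passed the test. Members without a call in every library were left out, so the test could not show a call gained or lost with DOX. For this test the log2 ratios were centred on the median of all regions in each library. Among 16627 regions called in all 6 libraries, limma found 0 with an adjusted p under 0.05 (0% of those tested), and 0 of the 92 members, whose smallest adjusted p was 0.699. At an unadjusted p under 0.05 there were 4 of the 92 members (4.35%), a smaller share than the 6.89% of all regions tested. All 4 were lower with DOX after centring, at Zfp967 (-0.46 ± 0.16), Zfp639 (-0.64 ± 0.24), Zfp996 (-0.35 ± 0.15) and Zfp930 (-0.35 ± 0.16, log2 ± SE). This direction depended on the scaling, since without centring 1 member was higher and 1 lower at that threshold. At Zfp639 the value rested on untreated replicate 2, with scaled log2 ratios of 0.83, 0.57 and 0.60 in the DOX libraries and 0.89, 1.89 and 0.88 in the untreated libraries. The called stretches of that library held 93 ChIP and 21 input reads, against 352 and 191 in untreated replicate 1. The 92 differences ran from -0.64 to 0.38, with a median of -0.06 beside -0.03 over all regions, and 65 of them were negative. This split depended on the scaling, since without centring 52 of the 92 were higher with DOX and 40 lower, with a median of 0.02 beside 0.05 over all regions. Regions higher in every DOX library than in any untreated library numbered 4 (4.35%, against 4.50% of all regions), and those lower in every DOX library numbered 7 (7.61%, against 7.52%), so both shares were near the background. On simulated data with these libraries' spread, 91 of 100 changes of 1 on the log2 scale were recovered and 5 of 100 changes of 0.5, so smaller differences were not detectable here.

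**Figure D3:**
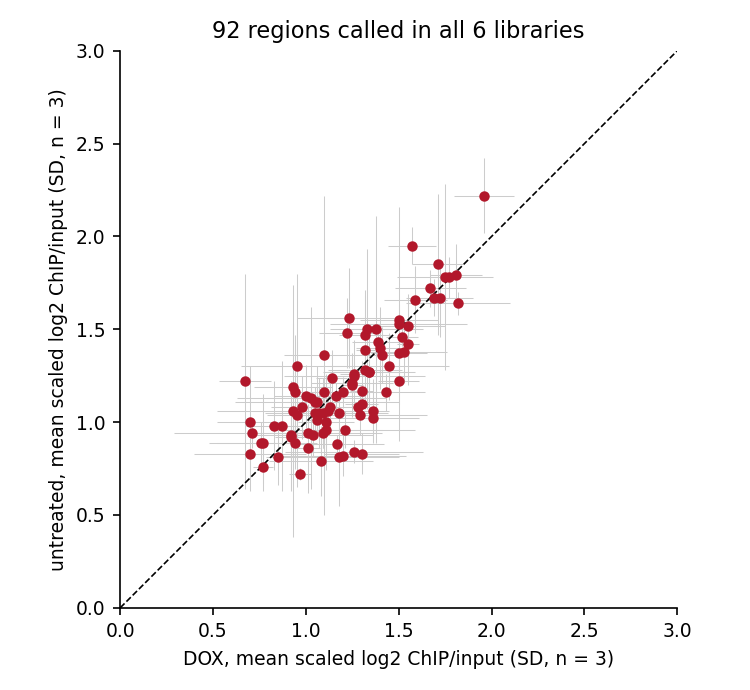
Mean scaled log2 ChIP/input ratio of the 92 members called in all 6 libraries, in the DOX libraries (horizontal axis) and in the untreated libraries (vertical axis), with the SD over 3 libraries each as grey bars and equality as a dashed line. Points lie on both sides of the line, and the differences tested by limma after centring ran from -0.64 to 0.38.

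A few regions were called under 1 treatment only. Regions over Zfp469 (chr8:122102801-122107400), Zfp660 (chr9:122904201-122906400) and Zfp942 (chr17:21953401-21958000) were called in all 3 untreated libraries and in no DOX library. They were 2.03% of the members, where 0.394% of all 33539 regions had that pattern. No member was called in 3 DOX libraries and no untreated one, where 1.65% of all regions were. Counting any number of libraries, 5 members were called in untreated libraries only (3.38%, against 2.39% of all regions) and 1, over Zfp157, in DOX libraries only (0.676%, against 7.23%). In the 3 untreated libraries their scaled log2 ratios were 0.48, 0.52 and 1.32 at Zfp469, 0.88, 0.91 and 0.67 at Zfp660, and 0.79, 0.47 and 1.27 at Zfp942. A second region of Zfp942 (chr17:21942001-21953000) next to it was called in all 6 libraries. Zfp942 RNA was 33.1, 37.3 and 34.7 CPM in iETV2 cells with DOX and 34.6, 35.6 and 36.1 CPM without it (log2 change 0.00, adjusted p = 0.991, edgeR).

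RNA of most hosts was detected, though mark and RNA were measured in separate libraries and the line of the ChIP libraries is not labelled. Counts were matched for 125 of the 127 hosts, Zfp660 and Zfp996 being unmatched, and 109 to 114 hosts had a mean over 1 CPM in each of the 6 groups (87.2 to 91.2%), beside 89.7 to 94.8% of the Zfp genes that were not hosts. Their median level was 11.8 CPM in iETV2 cells with DOX and 11.1 CPM without it, 10.7 CPM in the H188A line with DOX and 11.6 CPM without it, and 14.0 CPM in the libraries labelled DKO and 9.66 CPM in the control. The median of the Zfp genes that were not hosts was higher in every group, at 12.8 to 17.6 CPM. Per kb of gene span the most expressed were Zfp706, Zfp106 and Zfp553, and Zfp106, which encodes an RNA-binding zinc finger protein, had 642, 668 and 646 CPM in iETV2 cells with DOX and 685, 716 and 677 CPM without it. The least expressed on that scale were Zfp968, Zfp616 and Zfp708, each under 0.25 CPM in all 18 libraries. Near-identical genes such as the chromosome 2 group of Zfp966 to Zfp968 share sequence, and how reads that fit several copies were counted is not given, so their low counts are uncertain. Across the 125 hosts, enrichment and CPM had a Spearman rho of -0.071, given as a description over genes that share libraries and are not independent replicates.

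RNA of the hosts whose span began inside a region was set beside that of the rest. Of the 9 with counts, 6 were over 1 CPM in iETV2 cells with DOX and 6 without it (66.7%), against 88 of 98 hosts with known strand and no region over the start under both conditions (89.8%). Zfp872, marked at both ends, had 0.0879, 0.132 and 0.382 CPM in iETV2 cells with DOX and 0.498, 0.136 and 0.305 CPM without it. Zfp112 had 1.04, 1.19 and 1.33 CPM with DOX and 0.979, 0.773 and 1.5 CPM without it, while its neighbour Zfp180, marked at the end, had 16.8, 17.3 and 16.5 CPM with DOX and 16.1, 17.3 and 15.8 CPM without it. Zfp451, which encodes a SUMO ligase, had a mean of 119 CPM with DOX and 113 CPM without it, with its region called in 3 libraries and its promoter window outside it. With so few genes, and RNA and ChIP from cells not labelled as the same line, the 2 shares were not tested against each other.

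DOX in iETV2 cells addressed what ETV2 induction does to the RNA of these genes. Of 118 hosts tested, 22 rose (18.6%) and 6 fell (5.08%), where 27.0% of all 22025 tested genes changed (13.7% rose and 13.3% fell), and 90 did not pass. The median log2 change of the hosts was 0.08, beside 0.00 over all genes. Most changes were small, and no host rose by 2-fold or more, while 1, Zfp575, fell by more than that. The counts turned on single libraries. They were 6 that rose and 6 that fell without DOX replicate 1, 5 and 6 without DOX replicate 2, 10 and 3 without replicate 1 of the untreated cells, and 9 and 8 without replicate 3 of the untreated cells.

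Zfp69 rose most, at 6.89, 7.09 and 6.33 CPM with DOX, against 3.28, 3.68 and 3.99 CPM without it (log2 change 0.91 ± 0.13, adjusted p = 4.72e-05, edgeR). The groups were well apart. Zfp59 had 14.1, 13.3 and 15.2 CPM with DOX and 9.07, 10.1 and 9.09 CPM without it (0.60 ± 0.09, adjusted p = 0.000142, edgeR). Zfp386 had 31.4, 32.9 and 32.0 CPM with DOX and 23.8, 22.9 and 23.4 CPM without it (0.47 ± 0.07, adjusted p = 6.24e-05, edgeR). Both have a region that runs past the gene end, and neither pair of groups overlapped. Zfp961 (0.38 ± 0.07) and Zfp990 (0.29 ± 0.07) rose as well, and so did Zfp809 (0.30 ± 0.08), the retrovirus repressor. The call for Zfp990 was lost without DOX replicate 1 (0.25, adjusted p = 0.0539, edgeR) and without DOX replicate 2 (0.21, adjusted p = 0.0721, edgeR).

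Zfp575 fell to 0.949, 0.484 and 0.636 CPM with DOX, against 1.53, 1.38 and 1.88 CPM without it (-1.19 ± 0.33, adjusted p = 0.0129, edgeR), and without DOX replicate 2 it did not pass (-1.02, adjusted p = 0.0613, edgeR). Zfp946 had 26.5, 28.1 and 29.5 CPM with DOX and 35.3, 36.6 and 37.6 CPM without it (-0.37 ± 0.07, adjusted p = 0.000532, edgeR). Zfp2 (-0.42 ± 0.10), Zfp316 (-0.45 ± 0.12) and Zfp37 (-0.30 ± 0.10) fell too. The call for Zfp316 was lost without replicate 1 of the untreated cells (-0.37, adjusted p = 0.0597, edgeR), and that for Zfp37 without DOX replicate 2 (-0.29, adjusted p = 0.0898, edgeR) and without replicates 1 (-0.30, adjusted p = 0.104, edgeR) or 2 (-0.20, adjusted p = 0.21, edgeR) of the untreated cells. Beside these changes all 6 endothelial markers and 5 of 6 blood markers rose with DOX, and in bulk RNA fewer cells of a type and less RNA per cell cannot be told apart. Of the pluripotent cell markers 4 rose and 1 fell (of 8), of the primitive streak markers 3 rose and 1 fell (of 4), of the fibroblast markers 3 rose and 2 fell (of 7), and of the neuroectoderm markers 2 fell (of 3). Summed endothelial markers stood at 383 to 394 CPM with DOX and 15.3 to 19.1 CPM without it, and summed blood markers at 275 to 295 CPM with DOX and 8.31 to 11.7 CPM without it. Summed pluripotent markers stood at 964 to 1080 CPM with DOX and 927 to 983 CPM without it, and primitive streak markers at 1220 to 1270 CPM with DOX and 1040 to 1100 CPM without it. Fibroblast markers summed to 493 to 529 CPM with DOX and 384 to 411 CPM without it, and neuroectoderm markers to 7.67 to 9 CPM with DOX and 12.1 to 15 CPM without it. The part of these lists in the changes of the hosts was not tested.

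In the H188A line the hosts moved little. Of 116 tested, Zfp787 rose and none fell (3.02% of all 21086 genes changed, 2.22% up and 0.801% down), with 11 and 4 at an unadjusted p under 0.05, and DESeq2 called 2 that rose and 0 that fell. Zfp787 had 17.7, 19 and 16.3 CPM with DOX and 13.2, 14.9 and 13.7 CPM without it (0.39 ± 0.08, adjusted p = 0.045, edgeR). This call was lost without any 1 of 5 libraries, the adjusted p then being 0.0517 to 0.173 in edgeR, and held without replicate 3 of the untreated cells. Endothelial markers rose in 4 of 6 genes in this line, to a summed level of at most 191 CPM with DOX, against 89.3 to 97.2 CPM without it, and the summed blood markers were 28.5 to 30.9 CPM with DOX and 21.4 to 24.6 CPM without it.

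The difference between the lines was tested directly, as the DOX response in the H188A line minus that in iETV2 cells. Marker RNA already differed between the lines without DOX. Summed primitive streak markers stood at 16.7 to 18.2 CPM in the H188A line and 1040 to 1100 CPM in iETV2 cells. Pluripotent markers summed to 1660 to 1700 and 927 to 983 CPM in the same order. Neuroectoderm markers summed to 89.3 to 93.6 and 12.1 to 15.0 CPM. Line and cell state cannot be told apart in these libraries, and the part of either in the responses was not tested. Of 119 hosts, 4 had a positive and 8 a negative difference that passed, where 8.22 and 6.20% of all 25516 genes did (14.4% in all), and the host median was -0.03 beside -0.13 over all genes. Zfp59 had 14.6, 15.5 and 16.5 CPM in the H188A line with DOX and 17.0, 16.2 and 17.1 CPM without it, and its response differed from that in iETV2 cells by -0.65 ± 0.13 (adjusted p = 0.00231, edgeR). Zfp69 (-0.73 ± 0.21, adjusted p = 0.0294, edgeR) and Zfp961 (-0.38 ± 0.09, adjusted p = 0.00908, edgeR) also had the smaller response in the H188A line. Leaving out 1 library gave 10 calls without DOX replicate 3 of iETV2 or replicate 1 of the H188A line without DOX, 8 without DOX replicate 3 of the H188A line, and 3 to 7 without any 1 of the other 9 libraries. It was 3 without DOX replicate 2 of iETV2 and without DOX replicates 1 or 2 of the H188A line.

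**Figure D4:**
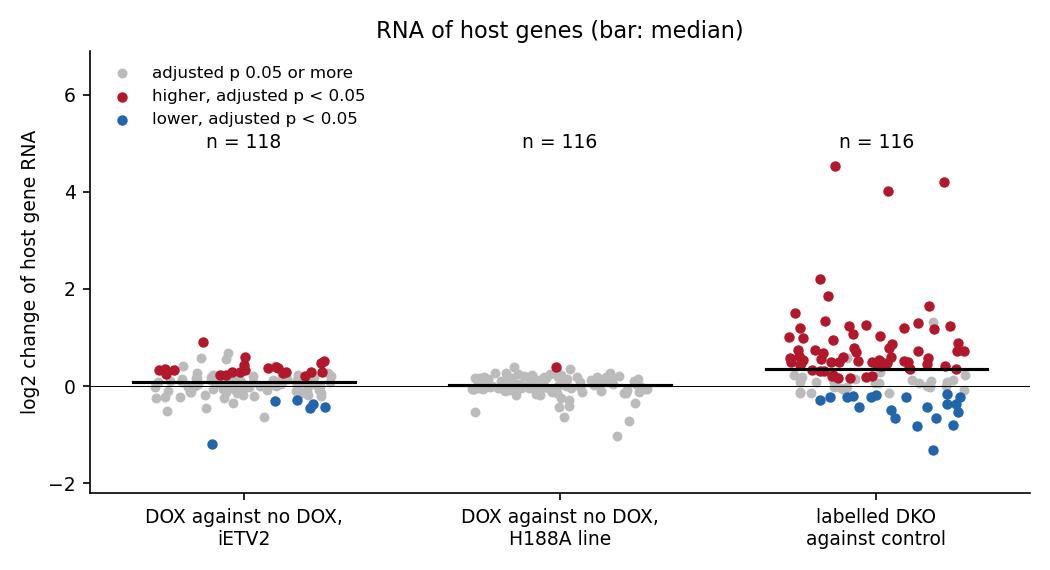
Log2 change of RNA for each tested host gene (points) in 3 comparisons, with red for higher and blue for lower at an edgeR adjusted p under 0.05, grey for the rest, and a bar at the median. Medians were 0.08, 0.03 and 0.35, and 66 of 116 hosts were higher in the libraries labelled DKO.

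The largest differences of host RNA were between the libraries labelled DKO and their control. Of 116 hosts tested, 66 were higher (56.9%) and 20 lower (17.2%), where 69.3% of all 20426 genes changed (35.6% higher and 33.7% lower), and 30 did not pass. The host median was 0.35 on the log2 scale, beside 0.04 over all genes, and 19 hosts were higher by 2-fold or more while 1 was lower by that much. Summed host RNA was 4150 to 4230 CPM in the libraries labelled DKO and 3490 to 3550 CPM in the control. Leaving out any 1 library gave 84 to 87 changed hosts in all.

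Zfp709 stood at 9.90, 9.32 and 9.96 CPM in the libraries labelled DKO, against 0.521, 0.196 and 0.427 CPM in the control (4.52 ± 0.19, adjusted p = 7.31e-15, edgeR). Zfp990 stood at 17.6, 18.9 and 17.0 CPM in them, against 0.898, 1.12 and 1.04 CPM in the control (4.01 ± 0.12, adjusted p = 7.29e-18, edgeR). Both were near silent in the control cells, although Zfp990 stood at 122 to 162 CPM in iETV2 cells and at 253 to 320 CPM in the H188A line. Zfp345 had 13.1, 13.5 and 10.3 CPM in the libraries labelled DKO and 1.87, 2.51 and 2.93 CPM in the control (2.21 ± 0.14, adjusted p = 4.75e-12, edgeR), and Zfp773, named after its values were seen, had 4.53, 4.85 and 5.6 CPM in them and 0.216, 0.255 and 0.269 CPM in the control (4.21 ± 0.23, adjusted p = 4.42e-13, edgeR). The regions of Zfp709, Zfp345 and Zfp773 all ran past the gene end and left the start uncovered.

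More strongly expressed hosts were higher too. Zfp945 averaged 95.7 ± 3.3 CPM in the libraries labelled DKO and 36.8 ± 1.6 CPM in the control (1.26 ± 0.05 SE, adjusted p = 5.23e-16, edgeR). Zfp110, whose product NRIF binds the p75 neurotrophin receptor, averaged 70.2 ± 1.6 CPM in them and 27.2 ± 1.1 CPM in the control, and Zfp141 averaged 76.3 ± 0.42 CPM and 30.9 ± 1.0 CPM in the same order. Among the hosts that were lower, Zfp629 averaged 10.9 ± 0.39 CPM in the libraries labelled DKO and 24.8 ± 0.76 CPM in the control (-1.31 ± 0.07, adjusted p = 2.14e-13, edgeR). Its region (chr7:127608601-127614600) was called in 3 DOX libraries and 1 untreated library. Zfp438 (-0.82 ± 0.11), Zfp771 (-0.80 ± 0.12), Zfp335 (-0.42 ± 0.05), known from neural development, and Zfp106 (-0.36 ± 0.03) were lower by less.

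**Figure D5:**
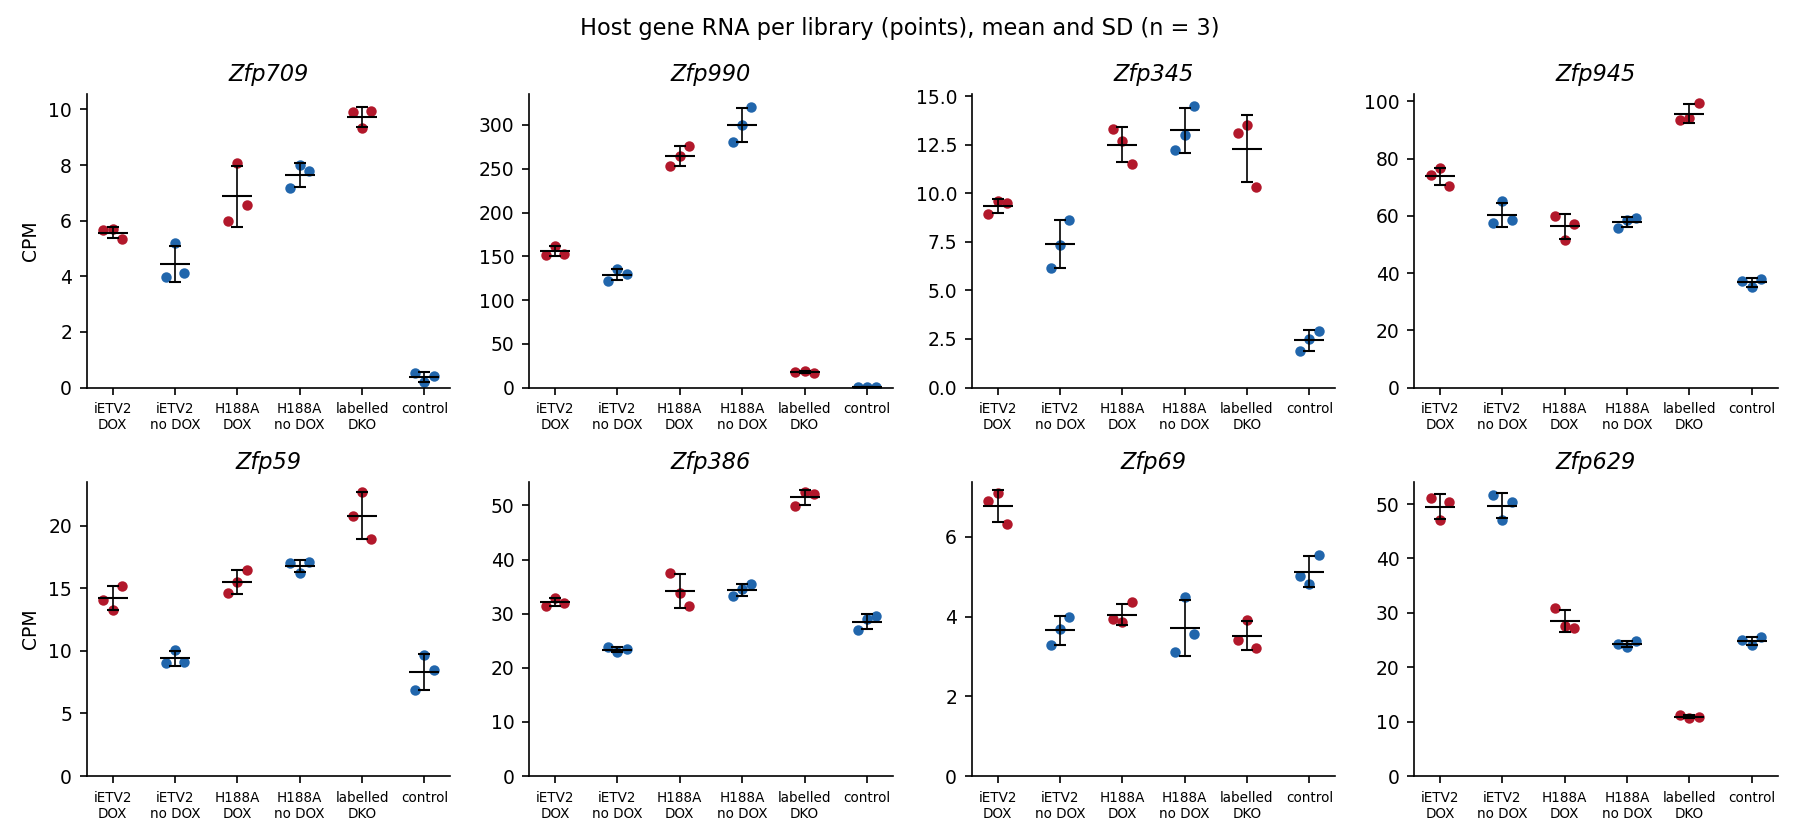
RNA of 8 host genes in CPM per library (points, red for DOX or labelled DKO, blue for no DOX or control), with the mean and SD of each group of 3. Zfp709, Zfp990, Zfp345 and Zfp945 lie higher in the libraries labelled DKO than in the control, Zfp629 lies lower, and Zfp59, Zfp386 and Zfp69 lie higher with DOX in iETV2.

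The same comparison was counted by where the merged region lay, beside the 35.6% of all genes that were higher and the 33.7% that were lower. Of 91 tested hosts with known strand and no region over the start, 59 were higher and 14 lower in the libraries labelled DKO, with a median of 0.45. Of 7 tested hosts with a region over the start, 0 were higher in edgeR, 0 at an unadjusted p under 0.05 and 0 in DESeq2, and 1, Zfp771, was lower, with a median of 0.00. The classes follow the annotated gene span, not the promoter windows. Zfp771 overlaps its region by 0.0337% of its length and its promoter window lies outside. Zfp629, which was lower, is classed as having no region over the start, but a promoter window of it lies inside its region. The classes were not tested against each other. Hosts called in all 6 libraries had 49 higher and 12 lower of 82 (median 0.39), and the other hosts 17 and 8 of 34 (median 0.22). Zfp genes without any called region had 72 higher and 57 lower of 178 (median 0.05), and those in regions of 30 kb or more, left out by the length limit, had 31 higher and 2 lower of 34 (median 1.21). The medians thus stood in the order of no region, short region and long region. With DOX in iETV2 cells they stood in the same order, at 0.01, 0.08 and 0.34. In the H188A line the order was the reverse, at 0.06, 0.03 and -0.12. The hosts, taken as the short region class, include 8 that also lay in a region of 30 kb or more. None of these orders was tested.

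Markers of other cell states moved with the same contrast. All 8 pluripotent cell markers were higher in the libraries labelled DKO, at a summed 2220 to 2280 CPM against 141 to 152 CPM in the control. Summed blood markers stood at 23.0 to 23.4 CPM in the libraries labelled DKO and 1180 to 1240 CPM in the control, summed endothelial markers at 121 to 125 CPM and 560 to 569 CPM in the same order, and all 5 tested members of each list were lower. Pou5f1, which defines embryonic stem cells, was at 383, 377 and 349 CPM in the libraries labelled DKO and only 22.3, 23.3 and 22.9 CPM in the control, although the labels call both embryonic stem cells. Of the fibroblast (feeder) markers 2 were higher and 6 lower, at a summed 235 to 239 CPM in the libraries labelled DKO and 1100 to 1120 CPM in the control, and 3 of 4 primitive streak markers and 2 of 3 tested neuroectoderm markers were higher. The part of these differences in the RNA of the hosts was not tested, and genotype and cell state cannot be told apart in these 6 libraries.

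The genes that place, read or remove the mark were counted beside the hosts. Of all tested genes, 27.0% changed with DOX in iETV2 cells, 3.02% in the H188A line and 69.3% in the libraries labelled DKO. Of 19 genes of the H3K9me3 machinery, 4 rose and 1 fell with DOX in iETV2 cells, none passed in the H188A line (0 up and 2 down at an unadjusted p under 0.05 in edgeR, and 0 in DESeq2), and 8 were higher and 10 lower in the libraries labelled DKO. With DOX in iETV2 cells Suv39h1, an H3K9 methyltransferase gene, had 119, 115 and 118 CPM, against 76.3, 81.3 and 77.4 CPM without it (0.60 ± 0.07, adjusted p = 4.37e-06, edgeR). Trim28, the KRAB corepressor, had 538, 520 and 477 CPM with DOX and 521, 520 and 506 CPM without it, and Setdb1 had 139, 139 and 131 CPM with DOX and 126, 126 and 135 CPM without it, and neither passed (adjusted p = 0.992 and 0.346, edgeR). In the libraries labelled DKO, Suv39h1 (-1.39 ± 0.04) and Cbx3 (-1.36), which encodes the mark's reader HP1 gamma, were lower, and Fam208a (1.20), a subunit of the HUSH silencing complex, and Atrx (1.13) were higher. Among the KDM4 genes, Kdm4b and Kdm4c fell with DOX in iETV2 cells (-0.52 ± 0.07 and -0.44 ± 0.07), and 0 of the 4 passed in the H188A line (0 at an unadjusted p under 0.05 in edgeR, and 0 in DESeq2).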

How the data were processed

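RNA was deposited by the authors as raw counts per Ensembl gene for 18 libraries, and H3K9me3 as called regions for 6 libraries. Per the file headers each region carries ChIP and input read counts, the authors' log2 enrichment, its p-value and FDR (0.05 or less), and a score. Per the submitters' processing notes, the tools included HTSeq 2.0.3, DESeq2 1.18.1, STAR 2.7.10b, featureCounts 2.0.6, StringTie 2.2.1, Picard 3.0.0, ChIPseeker, DiffBind and Bowtie, on GRCm38/mm10. Which tool made the counts, and whether by strand, is not given in the labels, so overlapping genes are uncertain. The input libraries were not used on their own.

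RNA was tested in R 4.3.3 with edgeR 4.0.16 (filterByExpr, TMM, quasi-likelihood F test, Benjamini-Hochberg adjustment over all tested genes, threshold 0.05), each contrast on its own 6 libraries and the difference between lines on 12. Standard errors were derived from the F statistic. CPM are scaled by library totals. ChIP ratios of merged regions, centred on each library's median, were tested with limma 3.58.1 (eBayes with trend). Both fits were tested on simulated data. Python 3.11.15 was used for overlaps. Gene positions and promoters are RefSeq's (GRCm38.p6), with strand for 109 hosts.

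Named genes are up to 8 hosts with the highest ratio, up to 5 per direction and RNA comparison with the smallest adjusted p, the 3 most and 3 least expressed, those with 3 regions, the genes nearest the length limit on either side, and Zfp809, a host, with Zfp42, Zfp57 and Zfp932, which are not hosts. The members and lists were chosen with earlier results of these data known. DESeq2 1.42.0, no filter, a replicate block, left-out libraries, other region rules and other ratios were tried as alternatives.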

Additional observations from a re-analysis of the deposited data

Results flagged for a closer look

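The DOX response of 12 host genes differed between the H188A line and iETV2 cells in the test of the difference itself (edgeR, adjusted p under 0.05). Given as the log2 response in the H188A line minus that in iETV2 cells, it was negative for 8 hosts, at -0.73 for Zfp69, -0.65 for Zfp59, -0.60 for Zfp950, -0.44 for Zfp809, -0.43 for Zfp386, -0.42 for Zfp990, -0.41 for Zfp407 and -0.38 for Zfp961. All 8 had a positive response in iETV2 cells, between 0.29 and 0.91, measured in libraries that also enter the difference. It was positive for 4 hosts, at 0.49 for Zfp37, 0.41 for Zfp787, 0.41 for Zfp260 and 0.34 for Zfp277. In iETV2 cells Zfp37 had a response of -0.30, Zfp787 of -0.02, Zfp260 of -0.14 and Zfp277 of -0.07. The 12 of 119 hosts flagged in all were a smaller share than the 14.4% of all genes that passed. By direction, 3.36% of hosts were positive against 8.22% of all genes, and 6.72% were negative against 6.20%. Marker RNA already differed between the lines without DOX, so line and cell state cannot be told apart here.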

How the results depend on the processing

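The count of changed hosts was stable in the libraries labelled DKO, at 84 to 89 around 86 in every other fit, and at 61 of 82 among hosts called in all 6 libraries. With DOX in iETV2 cells the 28 calls became 47 with a replicate block and 11 to 38 when 1 library was left out. In the H188A line the single call became 2 with DESeq2, 5 without a filter on low counts, 0 with a replicate block, 0 among hosts called in all 6 libraries and 0 to 1 when 1 library was left out. The 12 differences between the lines became 2 without a filter on low counts and 3 to 10 when 1 library was left out. The difference in called members, -3.33 per library, ran from -6.83 to 0.5 when 1 library was left out, reversing at 0.5 without untreated replicate 2. The causes were not tested. For named hosts, 250 of 324 values under alternatives kept their call and 74 lost it, none of them in the libraries labelled DKO. For H3K9me3 ratios every alternative gave 0 changed members among those called in every library used. Same-numbered libraries did not deviate together in all pairs (correlations of -0.0128, 0.322 and 0.564 in iETV2 cells, -0.208, 0.152 and 0.346 in the H188A line, and -0.00898, -0.00337 and 0.00954 for DKO), so the numbers were not taken to pair samples.

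Groups of 3, a mixed DOX group in ChIP, unknown strand for 18 hosts and ratios that cannot show changes of 0.5 limit these results.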
